A study of Mus musculus with 39 samples.

Results

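The response of the sciatic nerve to a crush injury was measured in control mice 2 weeks after the lesion, by bulk RNA sequencing of the distal nerve. The comparison took every library labelled Lepr-ctrl and 2 weeks post-crush (wpc), which gave 10 of the 39 libraries of the series, 5 from injured nerves (ipsilateral) and 5 from healthy nerves (contralateral). These control mice were Leprfl/fl: both copies of the leptin receptor gene carried loxP sites and no Cre recombinase was present, so that the receptor gene was intact, and this was shared by injured and healthy nerves alike. One sciatic nerve of each animal was crushed and the uncrushed nerve of the other side served as the healthy sample. The animals were 2 to 4 months old, and the endoneurium, the interior of the nerve with its axons, Schwann cells, fibroblasts, vessels and immune cells, was taken after the perineurial sheath had been stripped off. The 10 libraries came from 6 animals, of which 4 (ctrl-123, ctrl-130, ctrl-131 and ctrl-147) gave both nerves, while ctrl-120 gave only a healthy and ctrl-144 only an injured nerve. The series also held mice without the receptor in Schwann cells and nerves taken at 4 wpc, and the control nerves at 4 wpc are compared with these last.

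Crush cuts the axons but leaves the tubes of basal lamina around them, and axon and myelin beyond the lesion then break down, a process called Wallerian degeneration. Schwann cells leave the myelinating state, become repair cells that clear myelin and feed regrowing axons, and later wrap the returning axons with new myelin. Blood-borne and resident macrophages take up the myelin debris, and endoneurial fibroblasts and vessels remodel the matrix. In bulk RNA, fewer cells of a type and less RNA per cell cannot be told apart, and this holds for each value below.

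Levels are given in CPM, the reads of a gene scaled to the size of the library, corrected by the trimmed mean of M values (TMM) so that libraries can be compared. They are not divided by gene length and are not compared between genes. Values are listed by animal in a fixed order, which is ctrl-120, ctrl-123, ctrl-130, ctrl-131 and ctrl-147 for healthy nerves and ctrl-123, ctrl-130, ctrl-131, ctrl-144 and ctrl-147 for injured nerves. Changes are log2 fold changes of injured against healthy nerves ± their standard error, with Benjamini-Hochberg adjusted p-values of edgeR's quasi-likelihood test over 18442 tested genes. A gene is said to have risen or fallen, and is called, where the adjusted p was under 0.05 and the change was more than 2-fold, so that a call can be lost through either. The fit with animal as a block compares the nerves within animals.

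The labelled tissue was checked against its markers. *Mbp*, a protein of compact myelin, stood at 17109.6 to 24643 CPM in healthy nerves, and transcripts of skeletal muscle were few, with *Acta1* at 0.0227 to 5.34 CPM and *Ckm* at 0.0682 to 0.401 CPM over the healthy and 0.0644 to 5.53 and 0.0322 to 0.440 CPM over the injured nerves. By *Xist* and *Ddx3y*, 7 libraries came from females and 3 from males. Total counts lay between 21756672 and 45016322 per library. The injured nerve of ctrl-144, for which no healthy partner was given, stood apart: mitochondrially encoded mRNAs took 30.5% of its counts, against 7.78% to 10.9% in the other injured nerves and 1.84% to 2.14% in the healthy ones. It also had *Arg1* at 762 CPM, against 3.58 to 116 CPM in the other injured nerves. The injured nerves of ctrl-130 and ctrl-131 carried transcripts of fat cells, with *Cfd* (adipsin, a protein that fat cells secrete) at 172 and 92.1 CPM and at most 0.190 CPM in the other 8 libraries. In the healthy nerve of ctrl-120 the mast cell proteases *Cpa3* and *Mcpt4* were at 0.0303 and 0 CPM. Calls of named genes that rest on one of these libraries are given with and without it, as are some list counts.

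**Figure D1:**
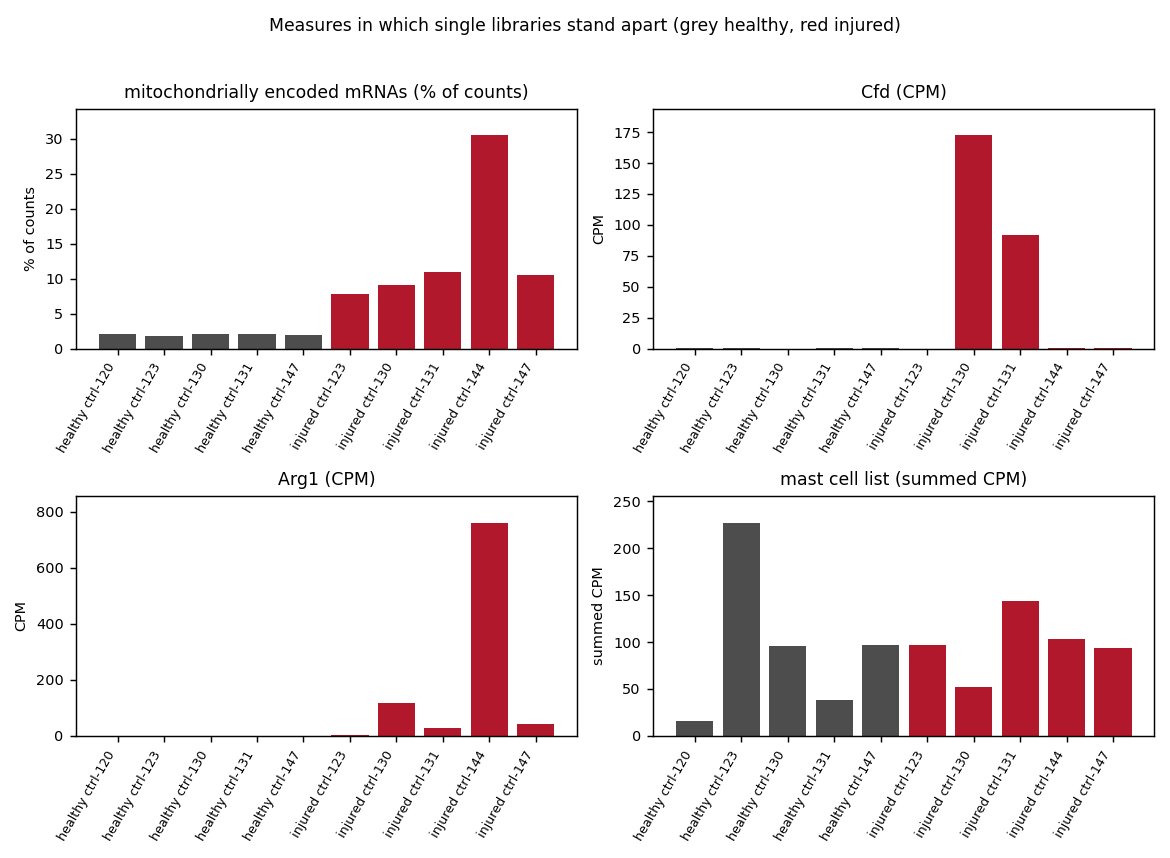
Bars for each of the 5 healthy (grey) and 5 injured (red) nerves, in 4 panels: percent of counts in mitochondrially encoded mRNAs, CPM of *Cfd*, CPM of *Arg1* and the summed CPM of 12 mast cell genes. Injured ctrl-144 reached 30.5% mitochondrial mRNA and 762 CPM of *Arg1*, and injured ctrl-130 and ctrl-131 alone held *Cfd* above 0.190 CPM.

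Of the 18442 genes, 6289 (34.1%) were called, 3652 of them (19.8%) higher and 2637 (14.3%) lower in the injured nerves. Each count of list members below is to be read beside these shares of all genes. For 8833 genes (47.9%) the CPM of the 5 injured nerves did not overlap with those of the 5 healthy nerves. Of the 6289 genes called, 5276 had no such overlap and 6009 moved the same way in all 4 animals with both nerves. Each trait is thus common among calls, and adds little to the call of a list member below. The change was more than 8-fold for 945 genes that rose and 331 that fell. The share of all counts held by genes called higher was 5.35% to 5.81% in healthy nerves and 20.6%, 23.4%, 24.2%, 46.7% and 23.2% in the injured ones, and the share held by genes called lower went from 39.4% to 41.1% in healthy nerves down to 15.7%, 14.7%, 16.8%, 6.35% and 17.3%. Injured ctrl-144 was the most displaced library on both measures. Injured nerves varied more among themselves: the median over genes of the SD of log2 CPM was 0.195 in healthy and 0.373 in injured nerves.

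**Figure D2:**
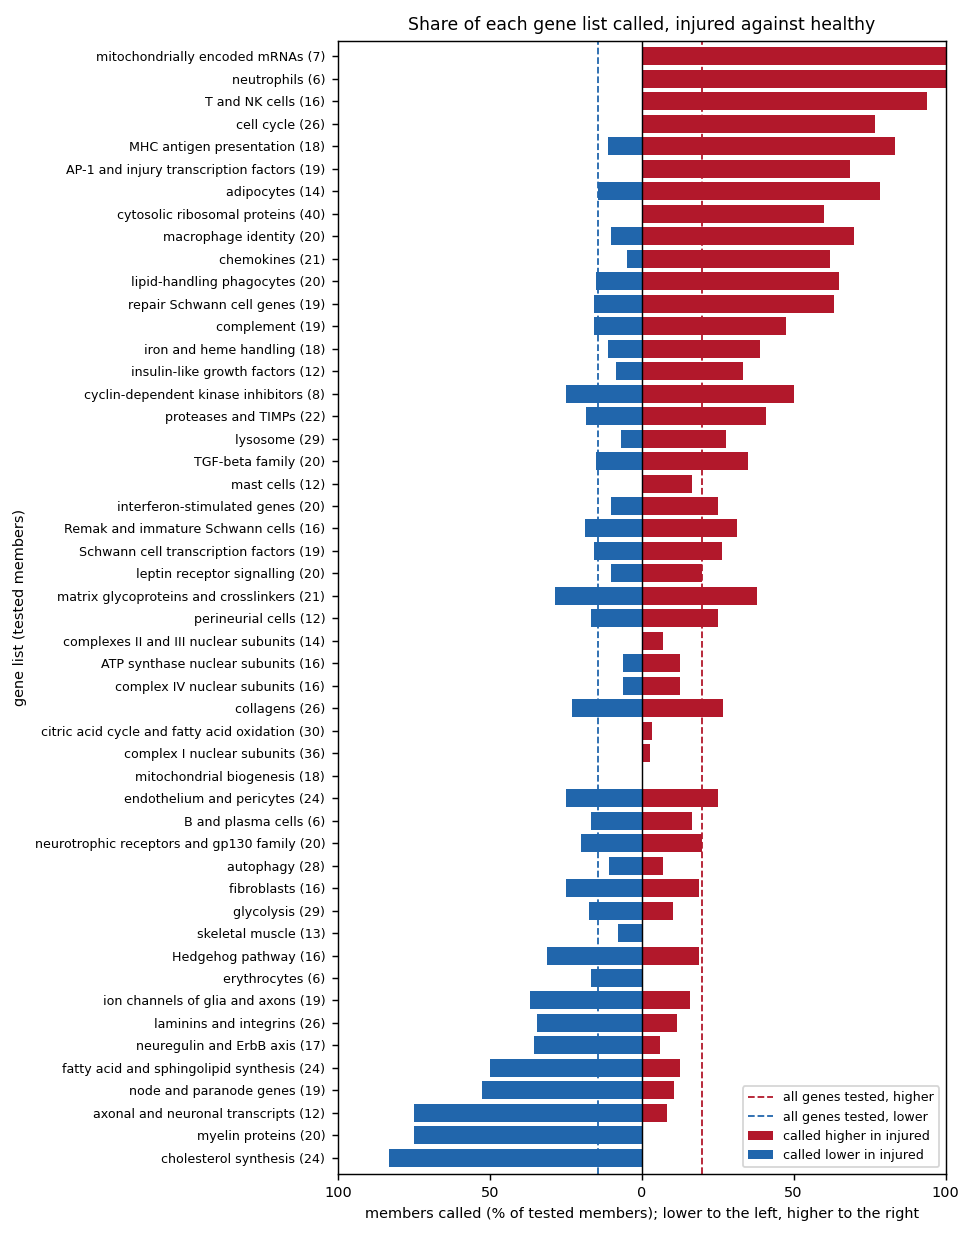
Percent of the tested members of each of 50 gene lists that were called higher (right) or lower (left) in injured than in healthy control nerves at 2 wpc, with the percent over all 18442 tested genes, 19.8% higher and 14.3% lower, as dashed lines. T and NK cell, mitochondrially encoded and cell cycle genes lie far to the right, and cholesterol synthesis and myelin genes far to the left.

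The largest rises were ranked among protein-coding genes with a mean log2 CPM over 1, no overlap between groups and the same direction in all 4 pairs. They were led by products of macrophages. *Arg1*, an arginine-degrading enzyme of macrophages (chr10:24915221-24927484), stood at 0.425, 0.341, 0.0909, 0.295 and 0.490 CPM in healthy nerves and at 3.58, 116, 26.7, 762 and 41.8 CPM in injured nerves, a change of 9.24 ± 1.10 (adjusted p = 5.99e-09). Every injured value lay above every healthy one, yet the injured values spanned a wide range, and without ctrl-144 the change was 7.22. Next came *Mmp12*, a macrophage elastase (7.86, 6.51 without ctrl-144), *Atp6v0d2*, a subunit of the proton pump found in macrophages and osteoclasts (7.72), *Itgax*, the integrin CD11c (7.48), and *Fabp4*, a fatty acid binding protein of fat cells and macrophages (7.38). The change of *Atp6v0d2* was 6.44 or more in each of 16 other settings. The remaining 5 of the 10 were *Selp*, a selectin of activated endothelium and platelets (6.62), *Slitrk6*, a neuronal surface protein (6.23), *Plac8* (6.12), the signalling protein *Wnt10b* (6.09) and *Duoxa1*, a maturation factor for a peroxide-producing oxidase (6.06).

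Ranked by the same rule, the steepest fall among protein-coding genes was that of *Etnppl*, an enzyme that breaks down phosphoethanolamine (chr3:130617448-130637521). Its level was 105, 98.1, 123.1, 101 and 146 CPM in healthy and 0.267, 0.709, 0.621, 0.142 and 0.403 CPM in injured nerves, a change of -7.99 ± 0.36 (adjusted p = 1.17e-18). It was thus near 0 in all 5 injured nerves, ctrl-144 included. *Plk5*, a polo-like kinase, had 189.9 to 394 CPM in healthy and 0.915 to 2.94 CPM in injured nerves, with no overlap. The other 8 were *Pla2g5*, a secreted phospholipase (-6.88), *Cnmd* (-6.54), the melanin-concentrating hormone receptor *Mchr1* (-5.95), the transcription factor *Wt1* (-5.93), *Ankfn1* (-5.39), the clotting inhibitor *Serpind1* (-5.39), *Rph3a*, a protein of vesicle release (-5.27), and periplakin, *Ppl*, a cytoskeletal linker (-5.23).

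**Figure D3:**
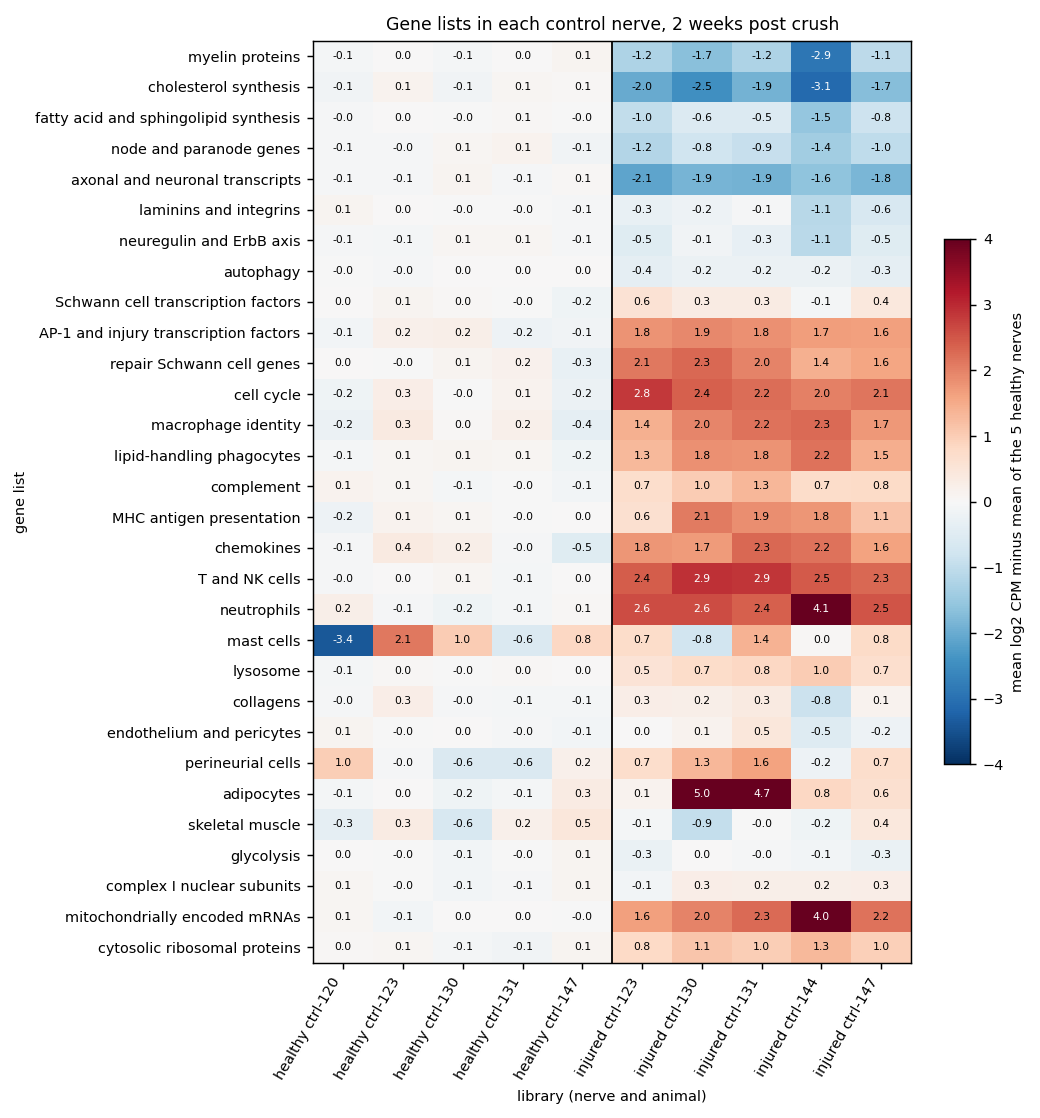
Mean log2 CPM of 30 gene lists (vertical) in the 10 libraries (horizontal), each minus the mean of the 5 healthy nerves, with red for higher and blue for lower. The 5 healthy columns are close to 0 for most lists, and injured ctrl-144 is at the far end of the injured columns for the myelin, cholesterol and macrophage lists.

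Myelin genes fell: of 20 tested, 15 were called lower and 0 higher, with a median log2 fold change of -1.37, against 0.08 over all genes. All 15 were lower in each of the 4 animals with both nerves, with no overlap between groups. Over all 6289 genes called, 6009 and 5276 had these traits. Without ctrl-144 12 were called lower, and under the block 13. *Mbp* stood at 17109.6, 22793, 18124, 19509 and 24643 CPM in healthy and 4931, 3208, 6045, 2216 and 6340.2 CPM in injured nerves, a change of -2.17 ± 0.26 (adjusted p = 1.03e-08). *Pmp22* and *Mbp* were among the genes that lost most CPM of all genes. *Prx*, periaxin, which anchors the myelin sheath to the basal lamina, went from 7102, 7619.8, 6796, 7156 and 8846 CPM to 1368, 828, 1518, 316 and 1341 CPM (-2.80 ± 0.27, adjusted p = 4.79e-11). Its partner *Drp2* changed most of the list, from 3928, 4390.3, 4785, 4817 and 4836 CPM to 290.1, 233, 447, 167.7 and 520.2 CPM (-3.78 ± 0.26, adjusted p = 2.88e-14). In each of these genes ctrl-144 was lowest, and the other 4 injured nerves were also below all healthy ones. The enzymes of the myelin galactolipids, *Ugt8a* (-2.41) and *Fa2h* (-2.22), and the tetraspanin *Cd9* (-1.33) fell too.

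Cholesterol synthesis genes fell in a larger share than any other of the 50 lists. Myelin membrane is rich in cholesterol, which Schwann cells largely make themselves. Of 24 tested genes of the pathway 20 were called lower and 0 higher, with a median log2 fold change of -2.21, and the 20 did not overlap between groups and fell in all 4 animals. *Sc5d*, a desaturase of the sterol ring, went from 386, 438, 417, 474 and 370.2 CPM to 26.5, 33.2, 47.5, 15.6 and 36.9 CPM (-3.71 ± 0.18, adjusted p = 7.42e-18). *Hsd17b7*, a ketoreductase of the same pathway, went from 159, 152, 165, 186 and 165 CPM to 15.7, 9.44, 18.5, 5.08 and 17.1 CPM (-3.65 ± 0.22, adjusted p = 1.2e-15). For both genes the lowest value was that of ctrl-144 and the healthy values lay close together. Of the early enzymes *Acat2* changed by -1.17, *Hmgcs1* by -2.28 and *Idi1* by -3.21.

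Since these genes fell together, their promoters are shown. The CCAAT box, bound by the factor NF-Y, is a common promoter element that sterol-regulated genes often hold beside the sites of the sterol-sensing SREBP factors. CCAAT or its complement ATTGG stood in the 250 bases before the start in 16 of the 17 cholesterol genes with a listed promoter (94.1%), against 39.5% of the 12722 tested genes with one, 39.4% of genes called higher and 40.4% of genes called lower. Both strands were searched, and a gene counted if any of its listed promoters held the motif. The sterol site TCACNCCAC, in which N is any base, was found in 1 of the 17 (*Hmgcs1*, 5.88%) and in 1.27% of all. A match is a description of the letters, not a binding site. Shown are 3 of the 4 genes of the list that fell most, *Sc5d*, *Hsd17b7* and *Idi1*, an isomerase of the early pathway. They were taken from the called genes with a promoter that holds CCAAT or ATTGG. Each is given 5′ to 3′ as the 250 bases before the start, from RefSeq on GRCm38.p6, with CCAAT and ATTGG in capitals:

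Sc5d (chr9:42264301-42264550, minus strand): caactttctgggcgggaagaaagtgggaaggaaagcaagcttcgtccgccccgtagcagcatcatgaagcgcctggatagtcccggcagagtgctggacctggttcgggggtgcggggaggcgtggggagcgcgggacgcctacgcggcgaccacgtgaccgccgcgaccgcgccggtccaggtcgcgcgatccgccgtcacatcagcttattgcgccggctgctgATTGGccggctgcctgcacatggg
Hsd17b7 (chr1:169969206-169969455, minus strand): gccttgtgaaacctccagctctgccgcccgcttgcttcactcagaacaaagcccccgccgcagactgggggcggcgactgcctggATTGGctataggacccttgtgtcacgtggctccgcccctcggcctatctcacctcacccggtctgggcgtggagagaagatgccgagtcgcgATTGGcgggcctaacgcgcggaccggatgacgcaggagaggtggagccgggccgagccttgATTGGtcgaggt
Idi1 (chr13:8885356-8885605, plus strand): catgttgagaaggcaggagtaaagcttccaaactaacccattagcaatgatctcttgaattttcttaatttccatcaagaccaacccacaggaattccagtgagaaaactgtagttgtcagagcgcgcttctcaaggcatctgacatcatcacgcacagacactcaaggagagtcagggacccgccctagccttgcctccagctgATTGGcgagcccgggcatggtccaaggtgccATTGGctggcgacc

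Fatty acid and sphingolipid synthesis had 12 of 24 genes lower and 3 higher (median -1.04). The fatty acid elongases *Elovl7* (-2.78) and *Elovl6* (-2.46), the malic enzyme *Me1* (-2.78) and acetyl-CoA synthetase *Acss2* (-2.26) fell most. *Srebf1*, a regulator of lipid synthesis, rose (1.13), as did *Elovl5* (1.32), while the rise of *Acacb* (1.09) was lost without ctrl-144 (0.93, adjusted p = 0.0444) and with animal as a block (0.92, adjusted p = 0.0305). *Srebf1* lost its call without injured ctrl-123 (0.99). Without injured ctrl-130 and ctrl-131, *Elovl5* was not called (0.88) and 1 of the 24 genes was higher.

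Among 19 Schwann cell transcription factors 5 rose and 3 fell (median 0.18), against 19.8% and 14.3% of all genes. *Egr2*, the master regulator of myelination, fell from 483, 419.7, 431, 333 and 468 CPM to 200.3, 111, 125.7, 72.9 and 201 CPM (-1.59 ± 0.24, adjusted p = 6.06e-07), with no overlap. Its co-factor *Nab1* fell as well (-1.30), and so did *Id4* (-1.60). *Id2*, an inhibitor of helix-loop-helix factors, rose most (3.48), followed by *Egr3* (2.37), *Pou3f1*, a factor of promyelinating cells (1.51), and *Sox2*, a factor of immature Schwann cells (1.42). *Sox10*, which marks Schwann cells at every stage, had 568 to 877 CPM in healthy and 217 to 583 CPM in injured nerves and was not called (-0.69 ± 0.23).

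The AP-1 and other injury-linked factors moved one way, with 13 of 19 higher and 0 lower (median 1.42). *Jun*, the AP-1 subunit that drives the repair state of Schwann cells, stood at 49.8, 64.9, 64.4, 52.04 and 55.4 CPM in healthy and 146, 169.8, 144.1, 109.7 and 125.3 CPM in injured nerves (1.28 ± 0.21, adjusted p = 3.89e-06). *Runx2*, a factor best known from bone and found in injured Schwann cells, went from 4.03, 4.25, 4.57, 2.92 and 3.43 CPM to 61.1, 83.7, 46.9, 77.2 and 60.1 CPM (4.09 ± 0.23, adjusted p = 1.21e-16). Neither gene overlapped between groups, and *Runx2* was the more separate of the pair. *Batf* (3.53), *Sox4* (3.03) and *Junb* (1.31) rose as well. *Olig1*, at no more than 3 counts in any healthy nerve, had 7.69 to 23.8 CPM in the injured nerves.

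Of 19 repair Schwann cell genes 12 rose and 3 fell (median 2.51, or 2.00 with a gene at the count floor set to its bound). *Gap43*, a growth protein of axons and dedifferentiated Schwann cells, was almost constant in healthy nerves at 5.16, 5.24, 5.27, 5.25 and 5.21 CPM and stood at 77.98, 143, 101, 90.7 and 88.5 CPM after injury (4.26 ± 0.23, adjusted p = 5.34e-17). *Fgf5*, a growth factor, was at 0.152, 0.155, 0.136, 0.207 and 0 CPM and then at 14.3, 35.7, 19.5, 12.1 and 12.97 CPM (7.06 ± 0.66, adjusted p = 3.44e-11). Both genes separated the groups fully. Among secreted factors of repair cells, *Artn* (4.71) and *Gdnf* (4.25), which feed sensory and motor neurons, *Btc* (5.52) and *Ucn2* (4.57) rose, as did *Ngfr*, the p75 neurotrophin receptor (2.52), and the filament gene *Gfap* (2.75). The adhesion gene *Cdh2* (-2.55), *Nrg1* (-1.52) and the cytokine *Lif* (-1.15) fell. Without injured ctrl-130 and ctrl-131 the fall of *Lif* was just under 2-fold and not called. *Shh*, at 10.03 to 22.2 CPM in injured and 9.22 to 12.03 CPM in healthy nerves, was not called (0.57 ± 0.32), and neither were *Ncam1* (-0.64 ± 0.18) and *L1cam* (0.29 ± 0.20).

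**Figure D4:**
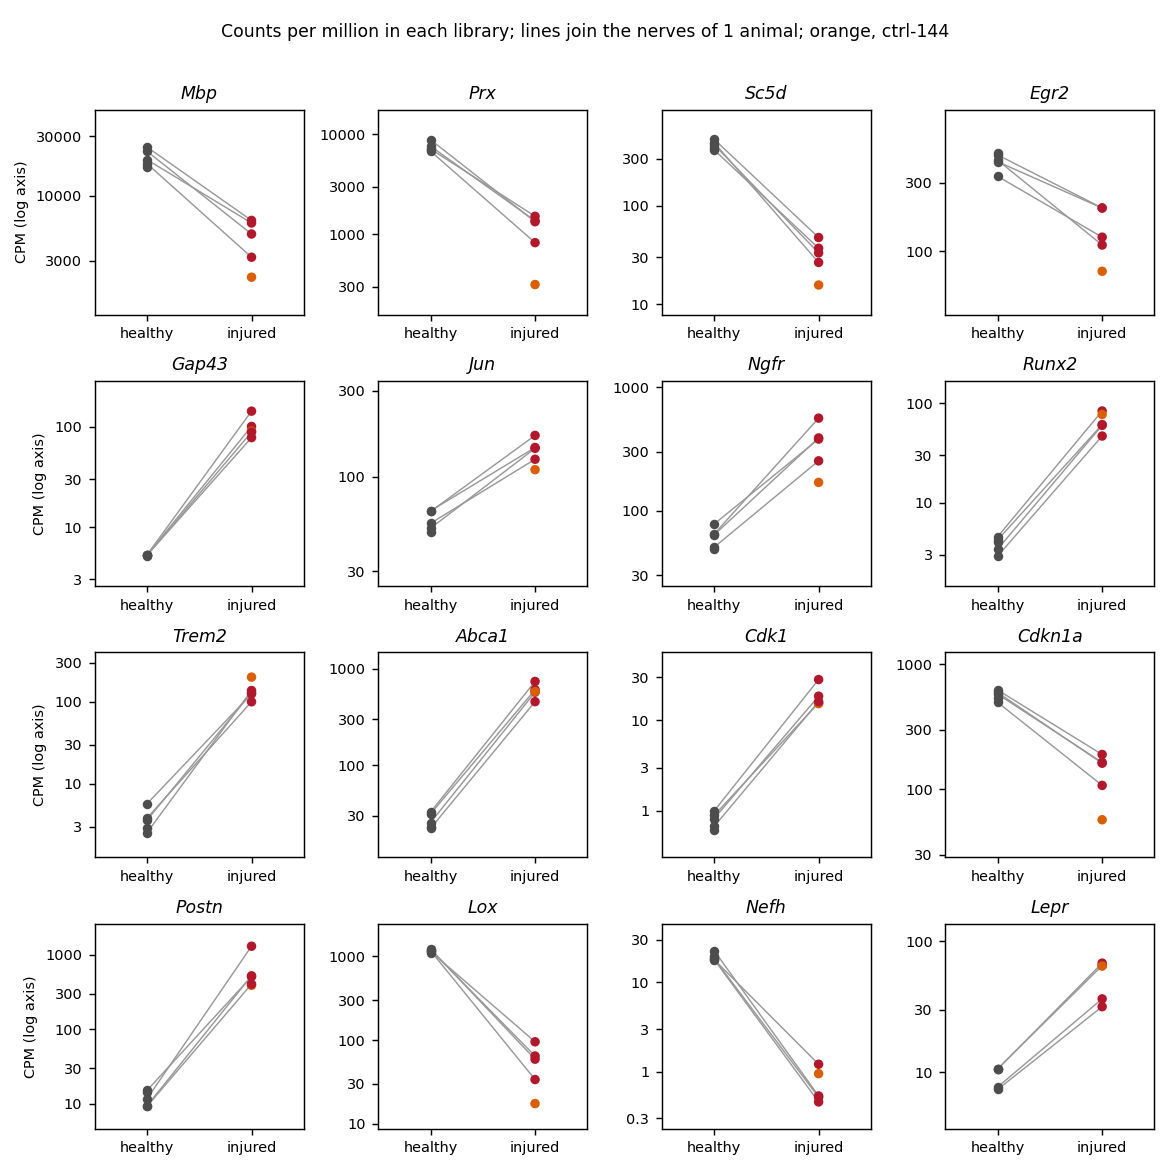
CPM on a log axis of 16 genes in the 5 healthy and 5 injured nerves, 1 point per library, with lines joining both nerves of an animal and the unpaired injured nerve of ctrl-144 in orange. Myelin and lipid genes (*Mbp*, *Prx*, *Sc5d*, *Egr2*), *Cdkn1a*, *Lox* and *Nefh* lie lower after injury, and *Gap43*, *Jun*, *Ngfr*, *Runx2*, *Trem2*, *Abca1*, *Cdk1*, *Postn* and *Lepr* lie higher in every injured nerve.

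Receptors and ligands of the neurotrophic and gp130 families moved both ways, with 4 of 20 higher and 4 lower (median 0.17), shares near the 19.8% and 14.3% of all genes. *Cntf*, a survival factor that myelinating Schwann cells store, went from 8.19, 8.74, 7.93, 9.12 and 9.75 CPM to 0.343, 0.677, 0.457, 0.0475 and 0.220 CPM (-4.58 ± 0.33, adjusted p = 7.69e-14). *Osm*, a cytokine of macrophages and neutrophils, rose (3.93), while *Il11* (-2.19), *Sorcs1* (-1.63) and the glial-factor receptor *Gfra1* (-1.31) fell. The rise of *Il6* (2.05) was lost without ctrl-144 (1.59, adjusted p = 0.125) and under the block (1.45, adjusted p = 0.2), and also without healthy ctrl-120 (1.83), ctrl-123 (1.83) or ctrl-147 (1.99). Without injured ctrl-130 and ctrl-131, 7 of the 20 were called lower.

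*Lepr*, the leptin receptor whose gene was floxed but intact in these mice (chr4:101717404-101815352), was at 10.6, 7.38, 10.6, 10.5 and 7.70 CPM in healthy and 31.7, 65.3, 68.2, 64.8 and 36.3 CPM in injured nerves (2.504 ± 0.31, adjusted p = 1.37e-08). The groups did not overlap. The 20 genes of leptin receptor signalling held 4 that rose and 2 that fell (median 0.17), shares near or below the 19.8% and 14.3% of all genes. *Cish*, a feedback inhibitor of cytokine signalling, rose (2.82), and the insulin receptor substrates *Irs1* (-3.37) and *Irs2* (-1.23) fell. Without injured ctrl-130, alone or with ctrl-131, 2 of the 20 were called higher. *Lep*, the ligand, was read in 2 of the 10 libraries, at 2.32 CPM in injured ctrl-130 and 1.76 CPM in injured ctrl-131, the libraries with fat cell transcripts. The rise of the phosphatase *Ptpn2* (1.02) was lost without ctrl-144 (0.91, adjusted p = 8.43e-08) and under the block (0.91, adjusted p = 5.13e-06), where it was just under 2-fold, and likewise without healthy ctrl-147 (0.95) or injured ctrl-130 (1.000).

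In the neuregulin and ErbB axis, by which axons instruct Schwann cells to divide and myelinate, 6 of 17 genes fell and 1 rose (median -0.64), and 10 fell without injured ctrl-130 and ctrl-131. The receptor *Erbb4* (-3.51) and the ligands *Tgfa* (-3.26), *Hbegf* (-1.55) and *Nrg1* fell, and the ligand *Btc* alone rose. Of 16 Hedgehog pathway genes 5 fell and 3 rose (median 0.24), against 14.3% and 19.8% of all genes. *Dhh*, the ligand that Schwann cells send to perineurial cells, fell, with 358 to 418 CPM in healthy and 65.98 to 204 CPM in injured nerves (-1.22 ± 0.20, adjusted p = 2.1e-06). The ligand-binding *Hhip* (-2.21), the release factor *Disp1* (-2.01) and the signal transducer *Smo* (-1.26) fell, while the co-receptor *Boc* (1.81) and *Ihh* (1.73) rose. The call of *Hhip* was lost without healthy ctrl-147 (-1.59) or without injured ctrl-130 and ctrl-131 (-1.59).

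Macrophage genes rose in 14 of 20 cases and fell in 2 (median 2.54). *Cd68*, a protein of phagocyte lysosomes (3.76), *Itgam*, the integrin CD11b (3.29), *Lyz2* (4.05) and *Adgre1*, which encodes F4/80 (2.43), all rose. *Cd163*, a scavenger receptor of resident macrophages, went the other way, from 18.8, 46.3, 40.2, 40.8 and 28.1 CPM to 2.48, 5.32, 5.72, 8.12 and 4.21 CPM (-2.76 ± 0.43, adjusted p = 1.2e-06). *Lyve1*, a further marker of resident perivascular macrophages, fell too (-1.89).

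Genes of lipid-handling phagocytes rose in 13 of 20 cases and fell in 3 (median 1.61). *Trem2*, a lipid-sensing receptor of phagocytes, stood at 2.91, 5.70, 3.82, 3.60 and 2.54 CPM in healthy and 124, 99.7, 129, 199 and 137 CPM in injured nerves (5.20 ± 0.37, adjusted p = 3.89e-14). *Abca1*, which exports cholesterol from cells, went from 23.02, 25.4, 32.7, 31.3 and 22.2 CPM to 571, 737, 605, 579 and 455 CPM (4.45 ± 0.18, adjusted p = 1.93e-19). The injured values of *Abca1* lay within a narrow range, with ctrl-144 among them. *Gpnmb* (3.75) and the lectin *Lgals3* (3.86) rose as well, and the phagocytic receptor *Mertk* (-1.56) and *Spp1*, osteopontin (-2.10), fell.

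In the complement list 9 of 19 genes rose and 3 fell (median 0.77): the 3 chains of C1q, *C1qa* (2.86), *C1qb* (2.95) and *C1qc* (2.96), rose together, whereas the complement inhibitor *Cd55* (-2.79) and the central component *C3* (-1.66) fell. The fall of *C4b* (-1.04) was lost without ctrl-144 (-0.95, adjusted p = 0.00052), without healthy ctrl-147 (-0.99) and without injured ctrl-123 (-0.93) or ctrl-147 (-0.93). Genes of MHC antigen presentation rose in 15 of 18 cases and fell in 2 (median 1.63), led by the protease *Ctss* (5.15), the class II regulator *Ciita* (2.98) and the class II chains *H2-Ab1* (2.88) and *H2-Aa* (2.60). The 2 that fell were the class II genes *H2-DMa* and *H2-DMb1*. Across 16 other settings they changed by -1.72 to -1.26 and by -1.90 to -1.35. *H2-K1* (1.26) and *H2-D1* (1.30) of class I rose less, and their reads can be split between near-identical copies.

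Of 21 chemokines 13 rose and 1 fell (median 2.90, or 1.90 with genes at the count floor set to their bounds). *Ccl8*, a monocyte attractant, had 0 to 0.134 CPM in healthy and 3.93 to 25.7 CPM in injured nerves (7.03 ± 0.64, adjusted p = 1.82e-11). *Ccl5* (4.90), *Cxcl14* (4.66), *Cxcl10* (3.48), *Ccl3* (2.92) and *Ccl2* (1.90) rose, and *Pf4* fell (-1.92). Interferon-stimulated genes showed no such shift, with 5 of 20 higher and 2 lower (median 0.32), close to the share over all genes. With animal as a block, and also without injured ctrl-130 and ctrl-131, 2 of 20 were called higher. Leaving out 1 library gave 2 without healthy ctrl-120 or injured ctrl-131 and 3 without healthy ctrl-147. *Mx1* (1.87, adjusted p = 0.0607) and *Mx2* (0.84, adjusted p = 0.154) lost their calls under the block. The call of *Mx1* was also lost without healthy ctrl-120 (1.87), without injured ctrl-131 (1.75) and without injured ctrl-130 and ctrl-131 (1.49). That of *Mx2* was lost without any 1 of 8 of the 10 libraries.

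T and natural killer cell genes rose in 15 of 16 cases and fell in none (median 3.47, or 3.26 with genes at the floor set to their bounds). The T cell receptor chain *Trac* was at 0.0295 to 0.114 CPM in healthy and 0.610 to 2.19 CPM in injured nerves (4.49 ± 0.64, adjusted p = 2.29e-07), and *Cd3d* (3.40) rose beside it. The cytotoxic genes *Gzma*, *Gzmb* and *Cd8a* had at most 3 counts in each healthy nerve and 0.580 to 1.03, 1.06 to 3.80 and 0.380 to 1.05 CPM in injured nerves. Without injured ctrl-130 and ctrl-131, 12 of the 16 were called higher. All 6 neutrophil genes rose, 4 of them with no overlap, and without ctrl-144 4 of the 6 were called. *S100a9* (2.54) was then at 1.90 (adjusted p = 0.122) and *Ltf* at 1.76 (adjusted p = 0.0669). *S100a9* was also not called with DESeq2 (adjusted p = 0.0854) or without healthy ctrl-123, ctrl-130, ctrl-131 or ctrl-147 or injured ctrl-123, and *Ltf* not under the block (1.67, adjusted p = 0.155), without healthy ctrl-120, ctrl-123 or ctrl-130 or without injured ctrl-130. *Csf3r*, their growth factor receptor, changed by 3.66, and the calcium-binding *S100a8* by 2.15. Of 6 B cell genes 1 rose, *Cd79b* (1.15), and 1 fell, *Ighd* (-1.63), but *Cd79b* was not called without healthy ctrl-131 (0.89) or injured ctrl-131 (0.96), nor *Ighd* under the block (-1.54). Of 12 mast cell genes 2 rose, *Hpgds* (2.74) and *Gata2* (1.18, 0.99 and not called under the block), while *Cpa3* (0.0303 to 42.1 CPM healthy, 2.29 to 12.9 CPM injured) and *Mcpt4* (0 to 50.96 and 0.838 to 13.9 CPM) overlapped between the groups. No mast cell gene was called lower, but 3 were without healthy ctrl-120, which lacks these transcripts, and also without either nerve of ctrl-131. These were *Mcpt4* (-1.97, -1.90 and -2.24), *Ms4a2* (-2.10, -1.99 and -2.29) and *Kit* (-1.18, -1.03 and -1.18), the last of which was also called without injured ctrl-130 (-1.06), and with ctrl-131 left out as well (-1.43). With animal as a block *Ms4a2* (-1.73, adjusted p = 0.0471) and *Kit* (-1.15, adjusted p = 0.016) were called lower and *Hpgds* alone higher.

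Cell cycle genes rose in 20 of 26 cases, with 0 lower and a median of 2.22. All 20 rose in each of the 4 animals without overlap. *Cdk1*, the kinase that starts mitosis (chr10:69335146-69352938), stood at 0.607, 0.992, 0.818, 0.886 and 0.668 CPM in healthy and 28.4, 18.6, 15.7, 15.4 and 16.2 CPM in injured nerves (4.56 ± 0.38, adjusted p = 2.77e-12). Its partner *Ccnb1* (4.09), the spindle checkpoint kinase *Bub1* (4.04), the topoisomerase *Top2a* (4.03) and *Mki67*, which encodes Ki-67 (3.75), moved by similar amounts. Inhibitors of cyclin-dependent kinases split, with 4 of 8 higher and 2 lower. *Cdkn1a*, the p53 target p21, fell from 534, 595, 497, 578 and 623 CPM to 162, 108, 164, 57.1 and 190.0 CPM (-2.05 ± 0.21, adjusted p = 2.08e-10), and *Cdkn1b*, p27, fell by less (-1.39). *Cdkn2a* (2.19), *Cdkn3* (1.86), *Cdkn2b* (1.23) and *Cdkn2c* (1.06) rose, the last not without injured ctrl-130 (0.87) or without both it and ctrl-131 (0.66, adjusted p = 0.0107).

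Promoters of the cell cycle genes are shown because these genes rose together and many genes of mitosis hold a CCAAT box together with a CHR element (TTTGAA). In the 250 bases before the start, CCAAT or ATTGG stood in 17 of 21 cell cycle genes with a listed promoter (81.0%), against 39.5% of all. TTTGAA or TTCAAA stood in 6 of 21 (28.6%), against 13.6% of all. For comparison, the AP-1 letters TGACTCA were in 4.28% of all, 6.05% of genes called higher and 4.68% of genes called lower. *Cdk1*, *Ccnb1* and *Bub1* had the largest changes among called genes of the list whose promoters hold CCAAT or ATTGG. Their promoters, picked in this way to hold the motif, are given as above, with the letters of both motifs in capitals. Starts are those of RefSeq. The window of *Cdk1* reaches into the gene range given for it above, which is from GENCODE, and the TTTGAA nearest the RefSeq start lies inside that range. The CHR letters are in the window of *Cdk1* and not in these windows of *Ccnb1* and *Bub1*:

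Cdk1 (chr10:69352913-69353162, minus strand): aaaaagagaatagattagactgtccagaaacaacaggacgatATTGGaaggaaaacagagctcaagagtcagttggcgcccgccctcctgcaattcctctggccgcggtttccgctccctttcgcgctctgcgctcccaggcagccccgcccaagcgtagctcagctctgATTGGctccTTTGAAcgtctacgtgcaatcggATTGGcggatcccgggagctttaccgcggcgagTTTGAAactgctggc
Ccnb1 (chr13:100786487-100786736, minus strand): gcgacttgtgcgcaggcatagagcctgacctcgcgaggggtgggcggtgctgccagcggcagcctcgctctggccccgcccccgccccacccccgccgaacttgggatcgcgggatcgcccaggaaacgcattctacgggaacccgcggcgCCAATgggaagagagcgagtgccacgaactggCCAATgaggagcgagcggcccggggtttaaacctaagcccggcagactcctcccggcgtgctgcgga
Bub1 (chr2:127831860-127832109, minus strand): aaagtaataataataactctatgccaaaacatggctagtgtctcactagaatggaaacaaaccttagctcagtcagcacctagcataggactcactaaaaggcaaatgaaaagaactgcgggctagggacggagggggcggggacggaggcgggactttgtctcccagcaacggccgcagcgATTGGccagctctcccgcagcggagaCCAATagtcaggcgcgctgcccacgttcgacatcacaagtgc

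Of 29 lysosomal genes 8 were called higher and 2 lower, and 16 more passed an adjusted p of 0.05 at a change under 2-fold (median 0.57). Of all 18442 tested genes, 11793 passed that p and 6289 of these were called. The summed CPM of the 29 was 5579 to 6099 in healthy and 6864 to 13265 in injured nerves, with no overlap. The proteases *Ctss*, *Lgmn* (2.41) and *Ctsd* (2.04) rose, and *Gaa*, which digests glycogen (-1.54), and the cholesterol exporter *Npc1* (-1.39) fell. The membrane proteins *Lamp1* (-0.88 ± 0.16) and *Lamp2* (-0.52 ± 0.15) were not called, though *Lamp1* was without injured ctrl-130 and ctrl-131 (-1.19). Of 28 autophagy genes 2 rose and 3 fell (median -0.43), shares below the 19.8% and 14.3% of all genes. *Gabarapl1* (-1.64), *Atg9a* (-1.43) and the receptor *Optn* (-1.36) were lower. *Atg16l2* (1.22) and *Atg9b* (1.80) were higher, the last not under the block (1.69, adjusted p = 0.0572).

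Genes of the extracellular matrix moved in both directions. Of 26 collagens 7 rose and 6 fell (median 0.29), and of 21 matrix glycoproteins and crosslinkers 8 rose and 6 fell (median -0.15). Of all genes, 19.8% rose and 14.3% fell. Of the 21, 4 were called lower without ctrl-144 and under the block, and 8 without injured ctrl-130 and ctrl-131. *Postn*, periostin, which crosslinks matrix, went from 14.4, 15.2, 11.7, 9.48 and 9.30 CPM to 510.4, 1307, 524, 390.0 and 406 CPM (5.70 ± 0.40, adjusted p = 3.89e-14). *Lox*, the enzyme that joins collagen and elastin fibres, went from 1085, 1165, 1224, 1142 and 1197 CPM to 33.7, 59.02, 95.3, 17.4 and 64.4 CPM (-4.43 ± 0.34, adjusted p = 2.15e-13). Both genes separated the groups in full, in opposite directions. *Tnc*, tenascin-C (4.50), and *Thbs2* (2.90) rose, and *Mfap5*, a microfibril protein (-4.12), and the proteoglycan *Vcan* (-2.14) fell. Among collagens *Col27a1* (3.51), *Col16a1* (2.55) and *Col7a1* (2.21) rose, and *Col8a2* (-4.25), *Col12a1* (-1.90) and the basal lamina gene *Col4a1* (-1.76) fell. The main fibrillar genes *Col1a1* (0.54 ± 0.26) and *Col1a2* (-0.25 ± 0.25) and the fibronectin gene *Fn1* (-0.16 ± 0.33) were not called.

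Of 22 matrix proteases and their inhibitors 9 rose and 4 fell (median 0.76). *Timp1* rose, with 1.55 to 2.43 CPM in healthy and 35.9 to 58.02 CPM in injured nerves (4.60 ± 0.30, adjusted p = 8.25e-15), whereas *Timp3*, an inhibitor bound to the matrix, fell (-3.09). *Adamts5* (-1.95) fell, and *Mmp8* (3.003) rose. Laminins and integrins, which tie Schwann cells to their basal lamina, had 9 of 26 genes lower and 3 higher (median -0.41), with *Itga8* (-3.11), *Lamc3* (-2.79), *Itgb5* (-2.37) and dystroglycan, *Dag1* (-1.90), lowest. *Itga5* (1.56) and *Itgb3* (1.20) rose. Without ctrl-144 7 of the 26 were called lower. The rise of *Lama1* (1.54) and the fall of *Itgb4* (-1.12) were lost without ctrl-144 (1.40, adjusted p = 0.0649, and -0.99, adjusted p = 8.79e-05) and under the block (1.54 and -0.93). *Lama1* was also not called without healthy ctrl-123 (1.24), nor *Itgb3* without injured ctrl-130 and ctrl-131 (0.95).

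Fibroblast genes did not move together, with 3 of 16 higher and 4 lower (median -0.11), against 19.8% and 14.3% of all genes. *Pdgfra*, a receptor found on endoneurial fibroblasts, fell (-1.69), as did *Gsn* (-1.84) and *Smoc2* (-1.499), and *Cxcl14* and *Pi16* (1.79) rose. *Dcn*, decorin, changed by -1.15, a call lost without ctrl-144 (-0.97, adjusted p = 0.00895) and under the block (-0.93). Of 12 perineurial genes 3 rose and 2 fell (median 0.83), a count that moved with the libraries used: 8 rose with animal as a block, 6 without healthy ctrl-120, 5 without ctrl-144, and 1 without either nerve of ctrl-131 or without injured ctrl-130 and ctrl-131 together. *Krt23* rose (3.23), and the rises of *Cldn1* (2.01) and *Moxd1* (2.14) were lost without injured ctrl-130 and ctrl-131 (1.23, adjusted p = 0.214, and 0.84, adjusted p = 0.407). Both were also lost without healthy ctrl-131 (1.77 and 1.88) or injured ctrl-131 (1.71 and 1.70), and *Cldn1* without healthy ctrl-123 (1.92) or ctrl-130 (1.77).

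Vessel genes moved both ways: of 24 genes of endothelium and pericytes 6 rose and 6 fell (median 0.19), against 19.8% and 14.3% of all genes. *Plvap*, which forms the diaphragms of leaky capillaries, went from 3.03, 2.05, 1.14, 0.827 and 1.38 CPM to 47.4, 78.4, 80.00, 69.3 and 46.6 CPM (5.26 ± 0.72, adjusted p = 9.74e-08). The endothelial genes *Egfl7* (2.14), *Tie1* (1.62), *Emcn* (1.61) and *Pecam1* (1.502) rose less. The 4 largest falls were all in genes known from pericytes, namely the potassium channel subunits *Kcnj8* (-3.97) and *Abcc9* (-2.80), the growth factor receptor *Pdgfrb* (-1.88) and *Rgs5* (-1.59). *Abcc9* was not called by DESeq2 (-2.82).

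Transcripts known from neurons and axons were low in the nerve and fell: of 12 genes 9 were lower and 1 higher (median -2.52, or -1.91 with a gene at the floor set to its bound). *Nefh*, the heavy neurofilament chain, stood at 20.02, 22.7, 18.5, 18.1 and 18.02 CPM in healthy and 0.534, 0.515, 0.457, 0.949 and 1.21 CPM in injured nerves (-4.74 ± 0.31, adjusted p = 5.59e-15). *Nefl* (-3.57), *Nefm* (-2.87) and the vesicle fusion gene *Snap25* (-3.71) fell with it, and *Tubb3*, a tubulin of neurons, rose (2.45). Of 19 genes of the node of Ranvier and its flanks 10 fell and 2 rose (median -1.10). *Cntn1* (-4.62), *Cadm3* (-3.56) and *Nfasc* (-2.72), adhesion proteins between glia and axon, fell most, and *Cadm1* (1.28) and *Ezr* (1.29) rose, *Cadm1* not without injured ctrl-130 and ctrl-131 (0.995). Among 19 ion channels 7 fell and 3 rose (median -0.14): *Kcnk1* (-3.72) fell most, and the water channel *Aqp1* (5.61), the calcium channel *Cacna1h* (3.54) and the glial potassium channel *Kcnj10* (2.37) rose. Genes of Remak and immature Schwann cells had 5 of 16 higher and 3 lower (median 0.36), against 19.8% and 14.3% of all genes. *Gap43*, *Gfap*, *Ngfr* and the glutamate receptor gene *Gria2* (2.97) rose, while *Cdh2*, *Kcna1* (-1.45) and *Scn7a* (-1.15) fell.

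Among the lists of energy metabolism, the mitochondrially encoded mRNAs changed most. The mitochondrial mRNA share rose from 2.01% ± 0.118 (SD, n = 5) of counts in healthy nerves to 13.8% ± 9.44 (SD, n = 5) in injured nerves, or 9.57% ± 1.44 without ctrl-144. The difference of 11.7 percentage points (7.56 without ctrl-144) had a two-sided exact permutation p of 0.00794, the smallest that 5 against 5 libraries can give. Within the 4 animals with both nerves it was 7.59 points with an exact p of 0.125, the smallest that 4 pairs can give. Of the 13 mitochondrially encoded mRNAs 7 had counts enough to be tested and all 7 rose (median 2.69), and the other 6 had at most 2 counts in any of the 10 libraries. The cytochrome oxidase gene *mt-Co1* had 6223, 5135, 6039.7, 5878 and 5767 CPM in healthy and 19526, 22948, 27765, 91228 and 26167 CPM in injured nerves (2.69 ± 0.41, adjusted p = 8.34e-07). Its change was 2.05 or more in each of 16 other settings. *mt-Co1* gained more CPM than any other gene, ahead of *mt-Cytb* and *mt-Nd1*. Reads of features annotated as ribosomal RNA, mitochondrial ones included, moved with this share, at 0.330% to 0.423% of counts in healthy nerves and 0.671% to 1.06% in injured ones other than ctrl-144, which had 2.89%. The 50 most abundant genes took 41.4% of counts in ctrl-144 and 20.5% to 24.9% in the other injured nerves. The part of RNA quality and of nuclear copies of mitochondrial genes in these values was not tested.

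The nuclear-encoded subunits were called at or below the share over all genes, though most had a small positive change. The change was positive for 27 of 36 complex I genes and 10 of 14 genes of complexes II and III. It was positive for 13 of 16 genes of complex IV and 12 of 16 ATP synthase genes. The medians given next compare with 0.08 over all genes. Of 36 complex I genes 1 was higher and 0 lower (median 0.20), of 14 genes of complexes II and III 1 was higher (0.37), of 16 genes of complex IV 2 were higher and 1 lower (0.46), and of 16 ATP synthase genes 2 were higher and 1 lower (0.18). An adjusted p under 0.05 at a change under 2-fold was found for 16 of 36 in complex I, 8 of 14 in complexes II and III, 8 of 16 in complex IV and 6 of 16 in ATP synthase. Of all 18442 tested genes, 11793 passed that p and 6289 of these were called. The single complex I gene called was *Ndufa1* (1.17). Both risen ATP synthase genes, *Atp5e* (1.07) and *Atp5g2* (1.02), lost their calls without ctrl-144 (0.96 and 0.92) and under the block (0.96 and 0.78), as did *Uqcrh* of complex III (1.01, then 0.97 and 0.98). *Atp5g2* was also just under 2-fold without healthy ctrl-120 or ctrl-123 or injured ctrl-147, and *Uqcrh* without either nerve of ctrl-130, with values of 0.90, 0.996, 0.98, 0.996 and 0.99. Of 30 genes of the citric acid cycle and fatty acid oxidation 1 was called, *Cpt1c* (1.09, and 0.99 and not called under the block or without injured ctrl-123 or ctrl-147), with a median of -0.32, and of 18 genes of mitochondrial biogenesis none was called by edgeR without the block or by DESeq2 (median 0.26, with 8 members under an adjusted p of 0.05 in edgeR at a smaller change). Of these 18, *Ppargc1a*, a coactivator of mitochondrial genes, was called higher under the block (1.17, adjusted p = 0.00457) and without healthy ctrl-120 (1.05), *Pprc1* without injured ctrl-130 (1.006), and *Pprc1* and *Twnk* without injured ctrl-130 and ctrl-131 (1.06 and 1.04). Glycolysis had 3 of 29 higher and 5 lower (median 0.00), against 19.8% and 14.3% of all genes. There the hexokinases divided, with *Hk3*, a form of myeloid cells (4.33), and *Hk2* (1.48) higher and *Hk1* (-1.500) lower, and *Aldoc* (-2.93), *Ldhb* (-1.81) and *Pdk4*, which holds back pyruvate oxidation (-2.56), fell. Cytosolic ribosomal protein genes rose in 24 of 40 cases with 0 lower (median 1.11), for instance *Rps18* (1.66), *Rpl27* (1.51) and *Rplp2* (1.496), and reads of these genes can be split with many processed copies.

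In the TGF-beta family 7 of 20 genes rose and 3 fell (median 0.61). *Gdf15*, a stress-induced ligand (3.94), *Gdf11* (2.37), *Inhba*, an activin chain (2.25), and *Tgfb1* (1.59) rose, and *Bmp7* (-3.65) and the receptor *Tgfbr2* (-1.46) fell. With animal as a block 11 of the 20 rose. Of 12 insulin-like growth factor genes 4 rose and 1 fell (median 0.11): *Igf1* (3.15), *Igfbp2* (3.85), *Igfbp4* (1.73) and *Igfbp7* (1.499) rose, and the receptor *Igf1r* fell (-1.31). Iron and heme handling had 7 of 18 genes higher and 2 lower (median 0.28), with the hemoglobin binder *Hp* (3.61), the iron exporter *Slc40a1* (2.28), its inhibitor *Hamp* (2.32) and *Blvra* (1.89) higher.

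Fat cell genes were called higher in 11 of 14 cases and lower in 2 (median 7.40, or 5.31 with genes at the floor set to their bounds), but 5 of the 11 had no overlap between the groups. *Adipoq*, the main hormone of fat cells, was at 0, 17.9, 14.6, 0.237 and 0.183 CPM in the injured nerves. *Car3* was at 0.267, 91.8, 80.2, 0.285 and 0.147 CPM there. Both were above the other injured nerves in ctrl-130 and ctrl-131. Without those libraries 3 of the 14 were called higher. *Fabp4*, also made by macrophages, was highest in ctrl-144, at 14.6, 108, 72.2, 144.2 and 24.3 CPM in the injured nerves. Of 13 skeletal muscle genes 1 was called, *Pvalb* (-4.09), a call that leaving out any of the 10 libraries removed, and of 6 erythrocyte genes 1 was called lower.

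The same comparison was made in control nerves at 4 wpc, with 5 healthy and 4 injured libraries of other animals, and the difference between both responses was tested. Age of the lesion and cohort of animals cannot be told apart. Injured libraries at 4 wpc held 10905806 to 17640587 counts, against 21756672 to 27752451 at 2 wpc. Mitochondrially encoded mRNAs took 14.996% to 19.05% of their counts at 4 wpc, and ribosomal RNA features 2.54% to 3.15%. At 2 wpc, injured nerves other than ctrl-144 had 7.78% to 10.9% and 0.671% to 1.06%, and ctrl-144 had 30.5% and 2.89%. The part of these library differences in the values below was not tested. The responses differed for 815 genes (4.42%), 519 of them with a lower and 296 with a higher log2 fold change at 4 wpc. Of the 26 cell cycle genes 18 had a lower response at 4 wpc. *Mki67* changed by 3.75 at 2 wpc and 0.87 at 4 wpc, a difference of -2.88 ± 0.55 (adjusted p = 0.00124), with injured nerves at 4 wpc at 3.31, 5.35, 10.9 and 2.35 CPM. *Top2a* changed by 4.03 and then 1.07, and *Cxcl10*, a chemokine induced by interferon, by 3.48 and then 0.58. Lower responses at 4 wpc were also found for 7 of 19 repair Schwann cell genes, 6 of 16 Remak and immature Schwann cell genes, 7 of 26 collagens and 5 of 26 laminins and integrins.

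Of 20 myelin genes tested, 3 had a lower and 1 a higher response at 4 wpc, a larger share than the 4.42% of all genes, and none of the 24 cholesterol synthesis genes was called different in either direction. For macrophage identity 1 of 20 genes was called different, with a higher response at 4 wpc. Fibroblast genes gained at 4 wpc in 6 of 16 cases and matrix genes in 5 of 21, with 1 lower in each list. *Dpt*, dermatopontin, had a log2 fold change of 0.04 at 2 wpc, not called (-1.73 and not called without injured ctrl-130 and ctrl-131), and 4.06 at 4 wpc, and its injured nerves at 4 wpc stood at 23.9, 72.5, 2.95 and 2.63 CPM, so that the value rests on 2 of 4 libraries, ctrl-170 and ctrl-171. The log2 fold change of *Inmt* was -0.92 and then 3.64, that of *Ccn2*, a matrix-linked growth regulator, -1.06 (-0.93 and not called without ctrl-144, -0.90 under the block, -0.83 without healthy and -0.92 without injured ctrl-147) and then 1.72, and that of *Caln1* -3.42 and then 0.08. *Plk5*, which was lost at 2 wpc, remained lower at 4 wpc but by less, with -7.17 at 2 wpc and -4.15 at 4 wpc. Of genes whose response fell between the times, *Slc17a8*, a vesicular glutamate transporter, changed by 5.15 and then 1.88, and *B4galnt3* by 1.34 and then -1.67.

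**Figure D5:**
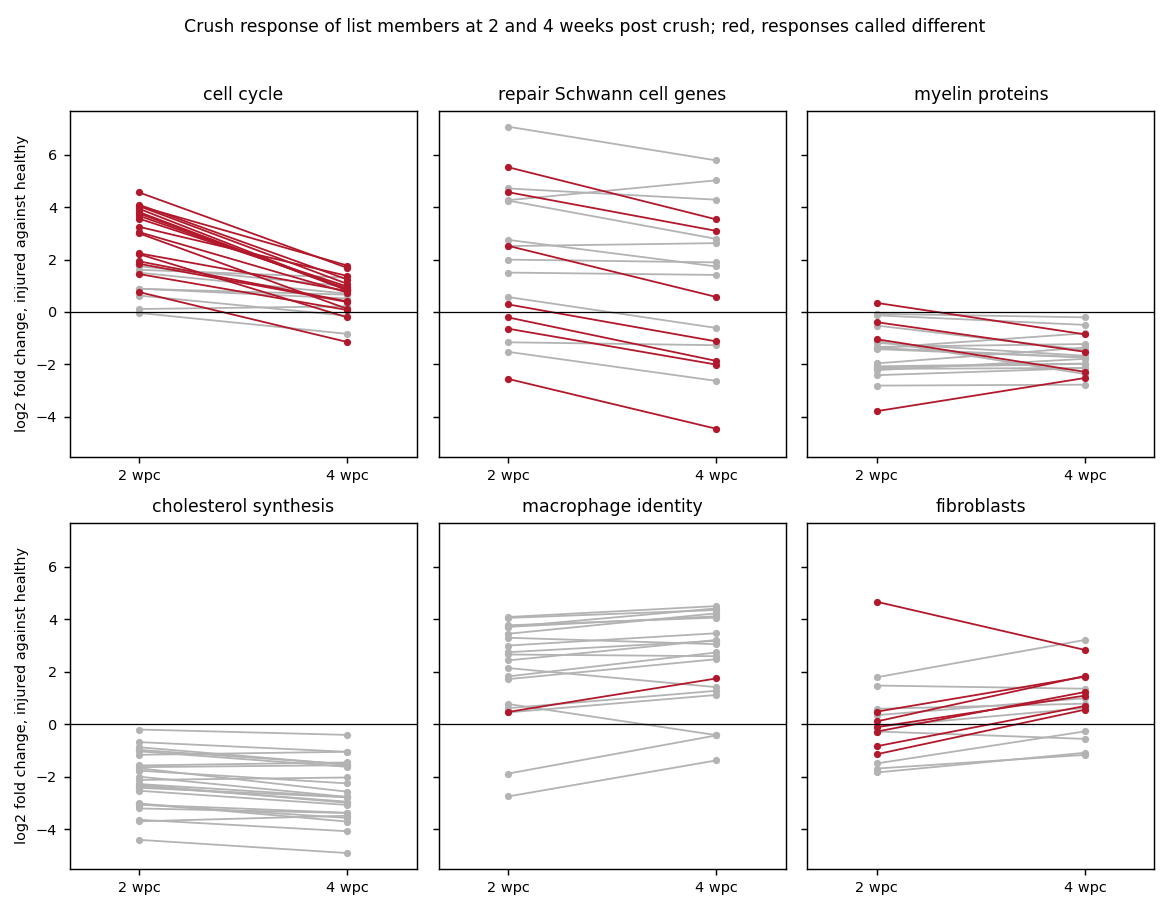
Log2 fold change of injured against healthy control nerves (vertical) at 2 and 4 wpc (horizontal) for the members of 6 gene lists, 1 line per gene, with genes whose responses were called different in red and genes at the count floor left out. Most cell cycle genes are red and drop from 2 to 4 wpc, and no cholesterol synthesis gene is red.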

How the data were processed

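RNA was sequenced from the endoneurium of single sciatic nerves, and 10 of 39 libraries were compared here, with 5 injured and 5 healthy nerves of Lepr-ctrl mice at 2 wpc grouped by their titles. The authors made the deposited values, raw read counts per gene for 55573 gene IDs, neither normalized nor filtered, with bcl2fastq 2.20.0.422, STAR 2.5 on GRCm38 and featureCounts 1.5.0-p1, per the submitters' processing notes. Strand and multi-mapping settings are not given in the sources used here, so counts of genes with near-identical copies, overlapping genes and antisense genes are uncertain. The authors tested with DESeq2.

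Counts were fitted here in R 4.3.3 with edgeR 4.0.16 (TMM factors, quasi-likelihood F test, Benjamini-Hochberg adjustment) over all 39 libraries in 8 groups, which share 1 estimate of the spread. The expression filter (minimum count 10, minimum total 15) kept 18442 genes, of which GENCODE M21 named 18433. Genes were called at an adjusted p under 0.05 where the log2 fold change exceeded 1 in size. Log2 CPM used a prior count of 2, while fitted fold changes used edgeR's own default. No fold is given for a gene whose libraries in one group all hold 3 counts or fewer. DESeq2 1.42.0, limma 3.58.1, the R packages data.table (1.17.8) and jsonlite (2.0.0), Python 3.11.15 and matplotlib 3.10.9 were also used.

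Both nerves of an animal share an animal number in the titles, and deviations from the group means correlated within animals over 5000 genes (0.194, 0.320, 0.257 and 0.569), so the numbers pair the nerves, although the healthy nerve of ctrl-131 correlated best with the injured nerve of ctrl-130. The main fit had no block, and the fit with animal as a block was an alternative. On simulated counts with 200 changed genes, all 100 genes changed 4-fold and 94 of those changed by a smaller fold were called. Of 210 genes under an adjusted p of 0.05, 13 were unchanged, and with no change 0 genes were called. The simulation held 1 spread for all genes and no animal effect, so it does not measure error rates in these data.

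The comparison and the 50 gene lists were chosen with earlier results of these data known. Genes were named by rule: *Lepr*; the 10 protein-coding genes per direction with the largest change (mean log2 CPM over 1, no overlap between groups, same direction in all 4 pairs); per list, its first 2 members and up to 4 largest calls per direction; the 3 largest gains and losses of CPM; and the 5 largest differences between 2 and 4 wpc per direction. *Kit*, *Ltf*, *Ms4a2*, *Pprc1* and *Twnk* were named after their values were seen, for calls that changed with the setting. Some genes that the rule names are not reported here. Promoters are from RefSeq on GRCm38.p6. The alternatives were another tool, normalization, filter, threshold, a term for sex, the block and leaving out libraries.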

Additional observations from a re-analysis of the deposited data

Results flagged for a closer look

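Of 70 sets of 5 libraries examined for a library far from the other 4, 10 had one. The measures overlap and some genes were picked for their large changes, so this count cannot be set against chance. Injured ctrl-144 accounted for 8. Mitochondrially encoded mRNAs were 30.5% of its counts against 7.78% to 10.9% in the other injured nerves. *mt-Co1* was at 91228 CPM against 19526 to 27765, *mt-Cytb* at 76425 against 15098 to 24114, and *mt-Nd1* at 59788 against 9754 to 16512. Its macrophage genes *Arg1* (762 CPM against 3.58 to 116), *Atp6v0d2* (710.4 CPM against 53.3 to 170.6) and *Mmp12* (224 CPM against 6.71 to 51.6) and the summed CPM of the 6 neutrophil genes (77.5 against 15.05 to 26.2) were also far above the other injured nerves. The part that RNA quality or the timing of degeneration in this nerve had in these values was not tested. The healthy nerve of ctrl-123 had the highest summed neutrophil CPM, 2.29 against 1.64 to 1.77, and the lowest *mt-Cytb*, 4917 CPM against 5345 to 5489.

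The crush responses at 4 and 2 wpc differed by the test of the difference itself for 815 genes. Among the genes named, the log2 fold change was higher at 4 wpc by 4.57 for *Inmt*, 4.01 for *Dpt*, 3.50 for *Caln1*, 3.02 for *Plk5* and 2.78 for *Ccn2*. It differed by -3.27 for *Slc17a8*, -3.01 for *B4galnt3*, -2.96 for *Top2a*, -2.91 for *Cxcl10* and -2.88 for *Mki67*. Time and cohort cannot be told apart in these values, and the part of library depth and RNA quality in them was not tested.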

How the results depend on the processing

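The 6289 calls became 6292 with DESeq2 (6226 of them shared), 6291 with DESeq2 size factors, 6274 with mitochondrial genes left out of the normalization, 6287 with a term for sex, 7098 with no filter and 5357 with only the compared libraries. A stricter filter, an adjusted p alone and a test against a 2-fold change moved the count by over 1.5 times. Requiring 10 counts in every library tested fewer genes and gave 3810 calls, 2109 higher and 1701 lower. An adjusted p alone gave 11793, 6222 higher and 5571 lower, and 1678 in place of 815 for the difference between 4 and 2 wpc. Testing against a 2-fold change (glmTreat) gave 3786, 2275 higher and 1511 lower. Leaving out 1 library gave 5840 to 6381 calls, 3429 to 3694 higher and 2411 to 2696 lower, with the fewest without injured ctrl-144, and 583 to 1084 for the difference between times. With animal as a replicate block 5825 genes were called, 5549 of them shared, and the mitochondrial share differed by 7.59 points within animals, with an exact p of 0.125 that 4 pairs cannot lower. Leaving out 1 library moved the difference over all 10 libraries between 7.56 and 13.2 points. Of 339 named genes, 318 kept their side of the threshold under the block, 317 without ctrl-144, and 310 without injured ctrl-130 and ctrl-131, a choice made after the data were seen that gave 6654 calls. No named gene changed direction where it was called, but some that were not called crossed 0, such as *Dpt* (-1.73 to 0.29) and *Fn1* (-0.69 to 0.07). Of 100 list counts, 13 moved by over 1.5 times under the block, 8 without ctrl-144 and 19 without ctrl-130 and ctrl-131, most of them counts of 3 or fewer. Genes with few counts, such as those of T cells and fat cells, are limited by depth.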
